A study of Homo sapiens with 20 samples.

Results

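The genes described here are 47 protein-coding genes of ribosome biogenesis and the nucleolus, taken as a fixed list of symbols. No measured value defined the list, but it was chosen with earlier results of these data known. For each gene the summits of peaks of RNA polymerase II (POL2) and of the transcription factor c-Myc (MYC) within 1 kb of an annotated transcription start site (TSS) were read from 12 libraries. A POL2 summit was present in at least 1 library at 44 of the 47, among 10778 such genes (called POL2-bound) of 20046 protein-coding genes in GENCODE release 44 on GRCh38.

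Chromatin immunoprecipitation followed by sequencing (ChIP-seq), which maps where a protein sits on DNA, was carried out in PC-3 cells, an established line of human prostate cancer epithelial cells. The comparison was between wild-type (WT) cells and cells with a knockout of SLK, a protein kinase named in the study's title as a co-regulator of c-Myc (SLK-KO, also labelled PSD10). Each combination of genotype and antibody had 3 libraries, and no other treatment separated the groups per the labels. What PSD10 stands for is not given in the sources used here, so loss of SLK and other features of that line cannot be told apart. The labels do not say whether replicates came from separate cultures, so the spread between libraries may be technical.

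Ribosome biogenesis begins in the nucleolus, where RNA polymerase I transcribes the ribosomal RNA precursor. Small nucleolar ribonucleoproteins guide its chemical modification, and large sets of assembly factors then cut, fold and load it with ribosomal proteins to give the small and the large subunit. RNA polymerase II transcribes the protein-coding genes of all these factors, and many of them are long-known targets of MYC, which binds DNA with its partner MAX, with a preference for the E-box, the letters CACGTG.

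The sequences below show the E-box nearest to a MYC summit at the members that had a MYC summit in all 6 MYC libraries, with 30 bases of the GRCh38 reference on the strand of the gene. RRS1, the remaining member of that group, is described by its values only. BYSL, WDR43 and UTP4 were added after their values were seen, as examples of an E-box beside the start site. Capitals mark each CACGTG, which reads the same on both strands.
NPM1: aaccgctgggagCACGTGgttgcCACGTGg
NCL: ctgtgtttcgggCACGTGgtggcctaccag
GNL3: ggcttcagttcaCACGTGgcgccagcggag
DDX21: ggccgggtgtccCACGTGgtccccggcgac
POLR1B: ctgacgcgggcgCACGTGgagtccttcaac
BYSL: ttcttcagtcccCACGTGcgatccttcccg
WDR43: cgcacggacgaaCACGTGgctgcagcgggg
UTP4: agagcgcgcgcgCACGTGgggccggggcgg

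The NPM1 stretch (chr5:171388562-171388591, plus strand) lies in an intron, carries 2 E-boxes 5 bases apart, and its first E-box is 728 bp downstream of the start of the canonical transcript. The NCL stretch (chr2:231463783-231463812, minus strand) is also intronic, with its E-box 686 bp downstream, and so is that of DDX21 (chr10:68956604-68956633, plus strand), 449 bp downstream. The GNL3 stretch (chr3:52686026-52686055, plus strand) is in the 5′ UTR with its E-box 9 bp from the start, and that of POLR1B (chr2:112542606-112542635, plus strand) is in the coding sequence, 156 bp downstream. BYSL (chr6:41921515-41921544, plus strand) and WDR43 (chr2:28894658-28894687, plus strand) carry theirs in the 5′ UTR, 31 and 6 bp from the start. The UTP4 E-box (chr16:69132621-69132650, plus strand) lies 13 bp upstream of the start (-13).

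The MYC lists were much shorter than the POL2 lists, and they differed in length between genotypes. WT MYC lists held 365, 201 and 267 summits and SLK-KO MYC lists 1218, 1420 and 988, while POL2 lists held 5047 to 17126 summits in WT and 15436 to 19017 in SLK-KO. The lists carry no read counts, so depth is unknown, and a gene without a summit is a gene without a called peak, not a gene without binding. For this reason the main counts are also given at equal length, with every list reduced to its 201 (MYC) or 5047 (POL2) best-scored summits. Checked against cell type markers, POL2 summits were present in at least 1 library at 5 of 5 epithelial genes and 0 of 5 leukocyte genes. Of all protein-coding genes 53.8% had one in at least 1 library. KRT8, KRT18 and KRT19 had one in all 6 libraries and the other epithelial genes in fewer. Of the prostate luminal genes, TMPRSS2 had one in all 6 libraries, and KLK2 and KLK3 had one in none. SLK itself had a POL2 summit in 2 WT and 3 SLK-KO libraries, which does not show whether its product was lost.

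MYC summits were several times more frequent at the 47 listed genes than at POL2-bound genes in every library. In WT, 13, 6 and 14 of the 47 genes had one, and in SLK-KO 26, 26 and 22, so the ranges of the genotypes did not overlap. As shares these were 23.4% ± 9.27 for WT and 52.5% ± 4.91 for SLK-KO (SD over 3 libraries each), a difference of 29.1 percentage points. Among POL2-bound genes the shares were 2.60% ± 0.716 and 10.1% ± 1.56 (SD, n = 3 each). The share of the 47 genes over that of POL2-bound genes was 8.28, 6.68 and 11.7 in the WT libraries and 5.51, 4.74 and 5.48 in the SLK-KO libraries. At equal length the same ratio ranged from 6.68 to 14.2.

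The genotype difference was not seen with lists of equal length. At equal length the WT share of the 47 genes was 21.3% ± 7.67 and the SLK-KO share 17.0% ± 3.69 (SD, n = 3 each), a difference of -4.26 points that lay within the spread between libraries. POL2-bound genes then gave 1.95% and 1.85%. With whole lists 23 members (48.9%) had a summit in more SLK-KO than WT libraries, 0 in more WT libraries, 10 in equal numbers and 14 in no library. Of the POL2-bound genes 1675 (15.5%) had more SLK-KO libraries, 60 (0.557%) more WT libraries, 169 equal numbers and 8874 none. The lean to SLK-KO was therefore not particular to the members. With equal lengths 6 members (12.8%) had more SLK-KO libraries and 9 (19.1%) had more WT libraries. Those 9 were GNL3, MRTO4, NCL, NOLC1, PES1, POLR1B, POLR1C, RRS1 and WDR12. Among POL2-bound genes the 2 shares were 1.466% and 1.735%. The 47 members were chosen with earlier results known, so the shares are descriptions without a test.

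**Figure D1:**
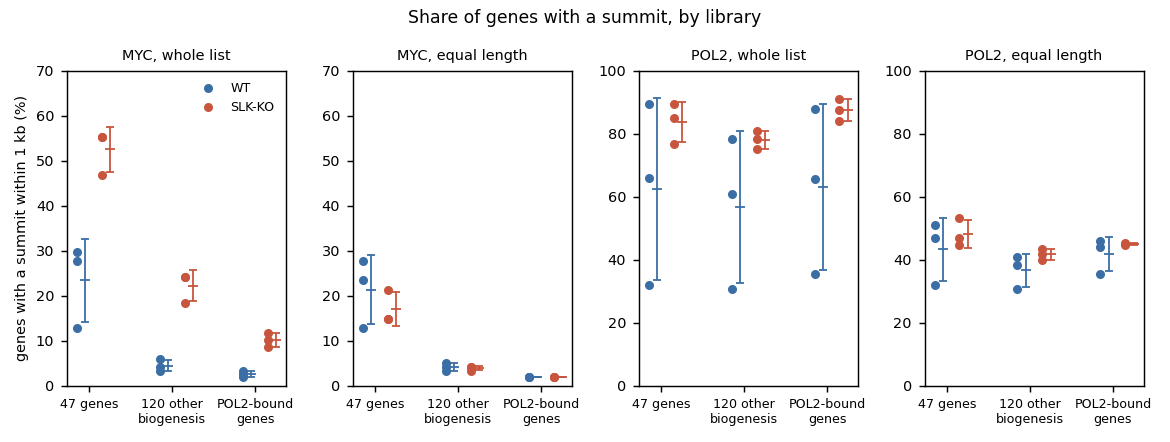
Percent of genes with a MYC or POL2 summit within 1 kb of a TSS for the 47 genes, 120 other ribosome biogenesis genes and all POL2-bound genes. Points are libraries, bars are mean ± SD (n = 3), and each antibody is shown with whole lists and with lists of equal length. MYC shares of the 47 genes were 23.4% in WT and 52.5% in SLK-KO with whole lists, and 21.3% and 17.0% at equal length.

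**Figure D2:**
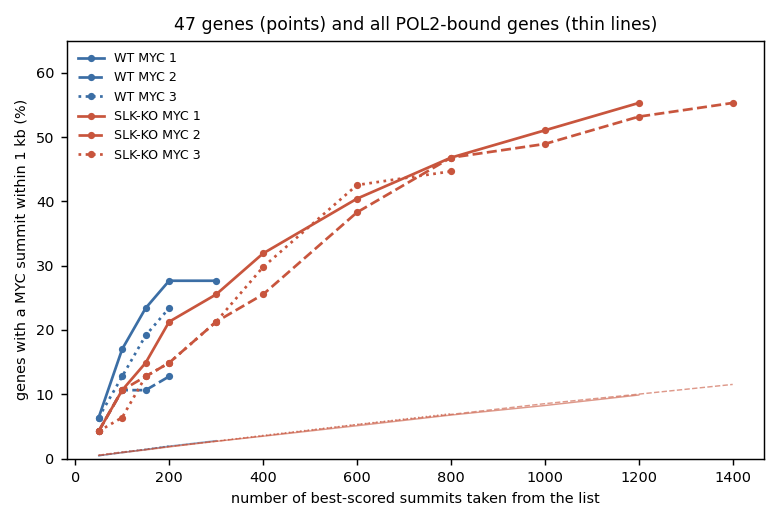
Percent of genes with a MYC summit against the number of best-scored summits taken from each MYC list, with points for the 47 genes and thin lines for POL2-bound genes. With the 200 best summits, WT replicate 1 reached 27.7% of the 47 genes and 1.93% of POL2-bound genes, and at each number of summits drawn the 47 genes stood above the POL2-bound genes in all 6 libraries.

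A MYC summit was present in at least 1 library at 33 of the 47 genes (70.2%), beside 17.7% of POL2-bound genes. In all 6 libraries it was present at 6 of 47 (12.8%), beside 0.909% of POL2-bound genes. The 6 were NPM1, DDX21, NCL, GNL3, RRS1 and POLR1B, of which 4 are nucleolar organisers or chaperones. At equal length a MYC summit was present in at least 1 library at 20 members (42.6%), beside 4.4% of POL2-bound genes, and in all 6 at 2 (DDX21 and NPM1), beside 0.51%. The count in all 6 was 3 with the 5′ end of the gene as the only start. With whole lists every one of the 18 members with a WT summit also had one in SLK-KO (0.445% of POL2-bound genes had one in WT alone), which is 100% of the WT set and 54.5% of the 33 SLK-KO members. For POL2-bound genes the shared set of 461 genes was 90.6% of the WT set and 24.8% of the SLK-KO set. At equal length 7 members (14.9%) had a summit in WT alone, beside 1.34% of POL2-bound genes. They were GNL3, MRTO4, NOLC1, PES1, POLR1B, POLR1C and WDR12.

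**Figure D3:**
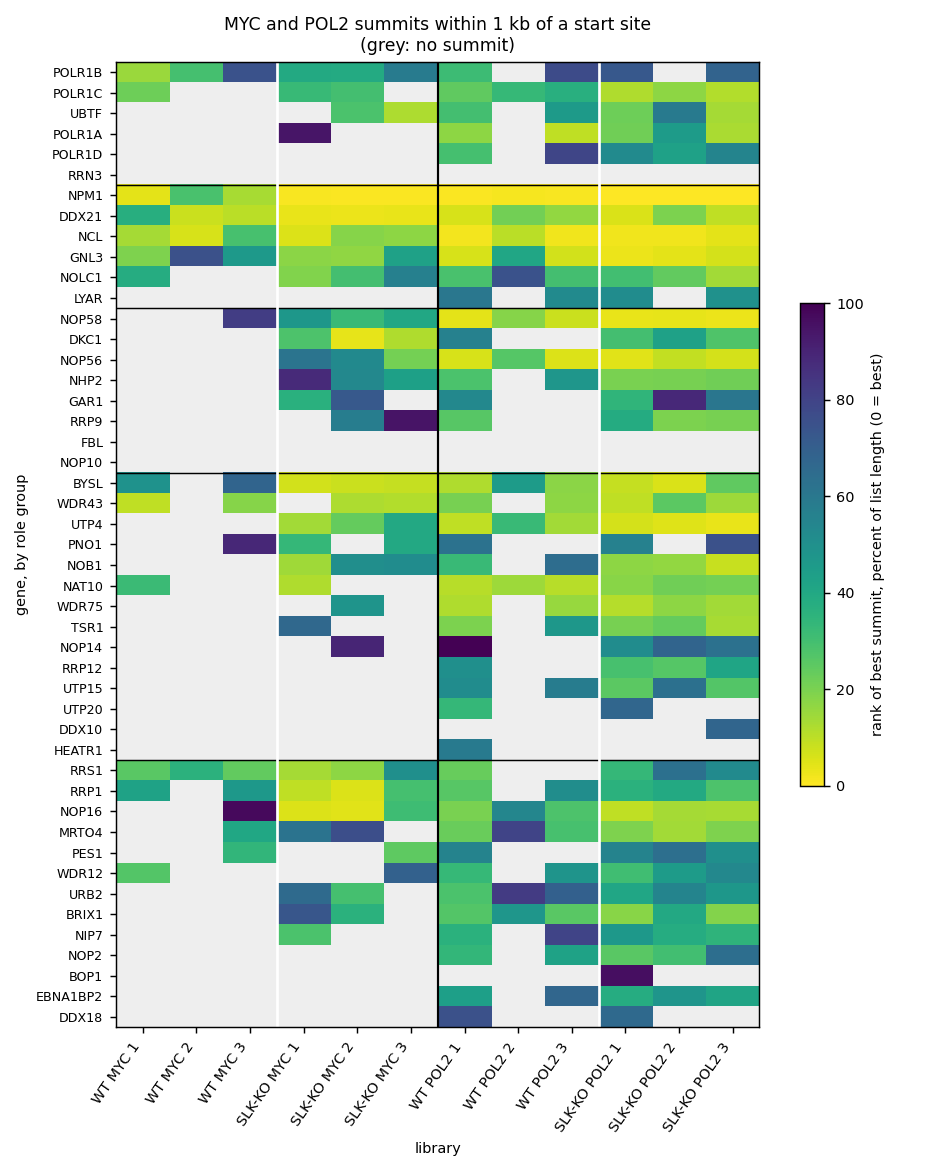
MYC and POL2 summits at the 47 genes (rows, grouped by role) in the 12 libraries (columns). Colour gives the rank of the best summit as percent of list length, from 0 (best, yellow) to 100 (dark), and grey means no summit. NPM1, DDX21, NCL, GNL3, POLR1B and RRS1 are coloured in all 6 MYC columns, and FBL, NOP10 and RRN3 are grey throughout.

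Among the nucleolar organisers and chaperones, 5 of 6 genes had a MYC summit in at least 1 library and 4 had one in all 6. NPM1 (ENSG00000181163.14), nucleophosmin, an abundant nucleolar chaperone, had MYC summits at ranks 15, 58 and 35 in WT and 10, 8 and 7 in SLK-KO, where rank 1 is the best score of a list. These were the best-ranked MYC summits of any member in 4 of the 6 libraries, the exceptions being WT replicates 2 and 3. All 6 lay between 725 and 748 bp downstream of the canonical start, within 9 bp of an E-box of the intronic stretch printed above. They were also just upstream of another annotated start of the gene (-38 to -15 bp). The best-ranked POL2 summits of NPM1 lay 31 to 49 bp downstream of the start, in the 5′ UTR, at ranks 91, 77 and 79 in WT and 36, 46 and 50 in SLK-KO.

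NCL (ENSG00000115053.17) encodes nucleolin, an RNA-binding protein of the nucleolus. Its MYC ranks were 49, 12 and 78 in WT and 62, 259 and 168 in SLK-KO, all in the intron, 546 to 695 bp from the canonical start, and its best-ranked POL2 summits lay 10 to 62 bp from that start. The intron holds several E-boxes. The nearest was 629 bp from the start for the 3 WT summits, 686 bp (the one printed above) for SLK-KO replicates 1 and 3, and 497 bp for SLK-KO replicate 2. At NPM1 and NCL the best-ranked MYC and POL2 summits were therefore separate positions in every library. DDX21 (ENSG00000165732.14), a nucleolar RNA helicase, had MYC ranks of 136, 16 and 28 in WT and 40, 40 and 32 in SLK-KO. Its WT summits lay 2 to 44 bp downstream of the start, and in SLK-KO 1 of 3 lay at the E-box shown, 481 bp downstream. GNL3 (ENSG00000163938.17), nucleostemin, a GTP-binding nucleolar protein, had MYC ranks of 71, 151 and 124 in WT and 210, 235 and 424 in SLK-KO. Its summits lay 7 to 56 bp from the start, each within 47 bp of the E-box, but a start site of PBRM1 lies within 1 kb and the summits cannot be assigned to 1 gene. NOLC1, a chaperone of small nucleolar ribonucleoproteins, had a MYC summit in 1 WT and 3 SLK-KO libraries, and LYAR, a nucleolar zinc finger protein, in none.

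For RNA polymerase I transcription, 4 of 6 genes had a MYC summit in at least 1 library. POLR1B (ENSG00000125630.16), a catalytic core subunit of the polymerase, had one in all 6, at ranks 55, 59 and 200 in WT and 479, 554 and 576 in SLK-KO. All 3 SLK-KO ranks were numerically larger than all 3 WT ranks, as at GNL3 and RRS1, in lists that were themselves longer. As percent of list length the POLR1B ranks overlapped, at 15.1 to 74.9 in WT and 39.0 to 58.3 in SLK-KO. Its POL2 summits were called in 2 WT and 2 SLK-KO libraries only. UBTF (ENSG00000108312.16), the factor that shapes active ribosomal DNA, had MYC summits in SLK-KO replicates 2 and 3, at ranks 400 and 123, in an intron 1099 and 1128 bp from the canonical start and near another annotated start. POLR1C, a subunit shared with RNA polymerase III, had a MYC summit in 1 WT and 2 SLK-KO libraries, and POLR1A, the largest subunit, in 0 and 1. POLR1D, another shared subunit, and RRN3, the initiation factor that recruits the polymerase, had none.

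With whole lists, MYC summits were called at 0, 0 and 1 of the 8 small nucleolar ribonucleoprotein genes in the WT libraries and at 5, 6 and 5 in the SLK-KO libraries. The shares of POL2-bound genes were 2.60% and 10.1%. At equal length 0, 0 and 0 of the 8 were called in WT and 0, 1 and 1 in SLK-KO, the gene being DKC1. The single WT summit was at NOP58 (ENSG00000055044.11), a core protein of the complexes that guide RNA methylation, at rank 218 of 267 in WT replicate 3. Its SLK-KO ranks were 575, 456 and 395. FBL, the methyltransferase of the same complexes, had no summit of either antibody.

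MYC in all 3 SLK-KO libraries but in 0 of the WT ones was found at 5 of 47 genes (10.6%), beside 1.61% of POL2-bound genes, and 3 of the 5 belong to that class. DKC1 (ENSG00000130826.19), the pseudouridine synthase dyskerin, had SLK-KO ranks of 339, 53 and 116. NHP2 (ENSG00000145912.10), its partner in the same complexes, had ranks of 1074, 755 and 425. NOP56 (ENSG00000101361.17), a methylation guide core protein, had ranks of 750, 746 and 207, with summits spread from 667 bp upstream (-667) to 331 bp downstream of the start.

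The other 2 act in small subunit assembly. UTP4 (ENSG00000141076.18), a component of the early pre-ribosome, had ranks of 171, 334 and 391 at the E-box shown above, in a start region shared with CHTF8 and DERPC. NOB1 (ENSG00000141101.13), the nuclease that makes the final cut of the small subunit RNA, had ranks of 172, 720 and 507. The nearest WT MYC summit to any of the 5 genes was 364530 bp away, at DKC1. For each of the 5 the exact two-sided permutation p over libraries was 0.1, the smallest that 3 against 3 allows, and the Benjamini-Hochberg adjusted p over all POL2-bound genes was 1.

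The converse pattern, 3 WT and 0 SLK-KO libraries, was found at 0 members and 0% of POL2-bound genes. At equal length the SLK-KO pattern was found at 0 of 47 genes (0.0649% of POL2-bound genes) and the WT pattern at 2, GNL3 and POLR1B (0.0557%). Of the 15 SLK-KO ranks at these 5 genes, only those of DKC1 replicates 2 and 3, NOB1 replicate 1 and UTP4 replicate 1 were 201 or better, the length of the shortest WT list. The calls therefore cannot be told apart from the length of the lists. The count of 5 was 8 without SLK-KO replicate 3 and 3 with a window of 500 bp. The shares of POL2-bound genes under these settings are not given here.

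In small subunit assembly 9 of 14 genes had a MYC summit in at least 1 library and 0 had one in all 6. WDR43 (ENSG00000163811.12), an early assembly factor, had the best median rank of the group, with ranks of 35 and 49 in WT replicates 1 and 3 and 176 and 113 in SLK-KO replicates 2 and 3. BYSL (ENSG00000112578.10), bystin, had ranks of 179 and 181 in WT replicates 1 and 3 and 85, 114 and 86 in SLK-KO. It was the only member other than NPM1 and DDX21 with a MYC summit in all 3 SLK-KO libraries at equal length. A start site of MED20 lies within 1 kb of it. NAT10, an RNA acetyltransferase, had a MYC summit in 1 WT and 1 SLK-KO library, and PNO1, a partner of NOB1, in 1 and 2. NOP14, TSR1 and WDR75 each had one in a single SLK-KO library, and DDX10, HEATR1, RRP12, UTP15 and UTP20 had none.

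In large subunit assembly 9 of 13 genes had a MYC summit in at least 1 library. RRS1 (ENSG00000179041.4), which helps to bring the 5S ribonucleoprotein into the precursor, had one in all 6, at ranks 93, 72 and 64 in WT and 164, 239 and 496 in SLK-KO. RRP1 (ENSG00000160214.13), an early nucleolar assembly factor, had ranks of 154 and 125 in WT replicates 1 and 3 and 117, 77 and 291 in SLK-KO, from 31 bp upstream (-31) to 36 bp downstream of the start. NOP16 was found in 1 WT and 3 SLK-KO libraries. Of the complex formed by PES1, BOP1 and WDR12, PES1 and WDR12 each had a MYC summit in 1 WT and 1 SLK-KO library, and BOP1 had none. MRTO4 had one in 1 WT and 2 SLK-KO libraries, BRIX1 and URB2 each in 2 SLK-KO libraries and NIP7 in 1. NOP2, EBNA1BP2 and DDX18 had none.

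POL2 was called at most of these genes. Counts were 42, 15 and 31 of 47 in WT and 42, 36 and 40 in SLK-KO, or 62.4% ± 28.9 and 83.7% ± 6.50 (SD, n = 3 each). POL2-bound genes gave 63.0% ± 26.3 and 87.5% ± 3.57, and the ratio of the shares ranged from 0.897 to 1.02. That background was itself chosen for a POL2 summit in at least 1 library, which the 47 genes were not. Against all 20046 protein-coding genes the ratio was 1.67 to 1.89 for POL2 and 8.68 to 21.4 for MYC. A POL2 summit in at least 1 library was present at 93.6% of the 47 genes and 53.8% of all protein-coding genes. The low value in WT replicate 2 went with the shortest POL2 list, and without it the difference was 6.03 instead of 21.3 points, while without WT replicate 1 it was 34.8 points. At equal length the shares of the 47 genes were 43.3% ± 10.1 and 48.2% ± 4.43 (SD, n = 3 each). The genotype ranges overlapped both ways.

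A POL2 summit in all 6 libraries was found at 15 of 47 genes (31.9%), beside 33.5% of POL2-bound genes, and at equal length at 12, beside 24.2%. The pattern of 3 SLK-KO and 0 WT libraries was found at 0 members (2.87% of POL2-bound genes), as was the converse (0.0186%). At equal length the first pattern was found at 1 member (NOB1), beside 1.86%. Without WT replicate 1, which had the longest WT POL2 list (17126 summits), it was found at 7 members. The share of POL2-bound genes under that omission is not given here, so the 7 cannot be set beside the 2.87%. HEATR1, a component of the early small subunit precursor, was the only member with POL2 in WT alone, in 1 library at rank 10082 of 17126, a pattern of 3.34% of POL2-bound genes. FBL, NOP10 and RRN3 had no POL2 summit within 1 kb in any library, and the nearest ones were 297939, 103681 and 1012493 bp away. A missing summit at these genes is a missing call and was not examined further.

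Some assigned POL2 summits were far from the main start. At WDR12 the best-ranked POL2 summit of all 5 libraries with one lay far upstream of the canonical start (-103322 to -103223 bp), at an outlying annotated start beside that of NBEAL1. A further 6 of its 11 POL2 summits were within 1 kb of the canonical start, in the same 5 libraries. At RRP12 3 of 4 best-ranked POL2 summits lay far upstream (-25028 to -24965 bp), beside PGAM1, and 5 of its 9 POL2 summits, in 3 libraries, were within 1 kb of the canonical start. The only POL2 summit of BOP1 lay 26142 bp downstream of its canonical start, at rank 18327 of 19017 in SLK-KO replicate 1. BOP1 is counted as POL2-bound through that summit alone. The only WT POL2 summit of NOP14 lay 21805 bp downstream, at rank 17060 of 17126 in replicate 1. With canonical starts alone, an alternative chosen after seeing the data, the POL2 pattern of 3 SLK-KO and 0 WT libraries was found at 2 members instead of 0.

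MYC was found most often where POL2 was called most regularly. All 15 members with POL2 in all 6 libraries had a MYC summit in at least 1 library, compared with 29.1% of the POL2-bound genes with POL2 in all 6. Of the 29 members with POL2 in 1 to 5 libraries 18 had one (62.1%), compared with 11.9% of such POL2-bound genes. None of the 3 members without POL2 had a MYC summit. Calls of both antibodies depend on the length of the lists, whose part in this relation was not tested.

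**Figure D4:**
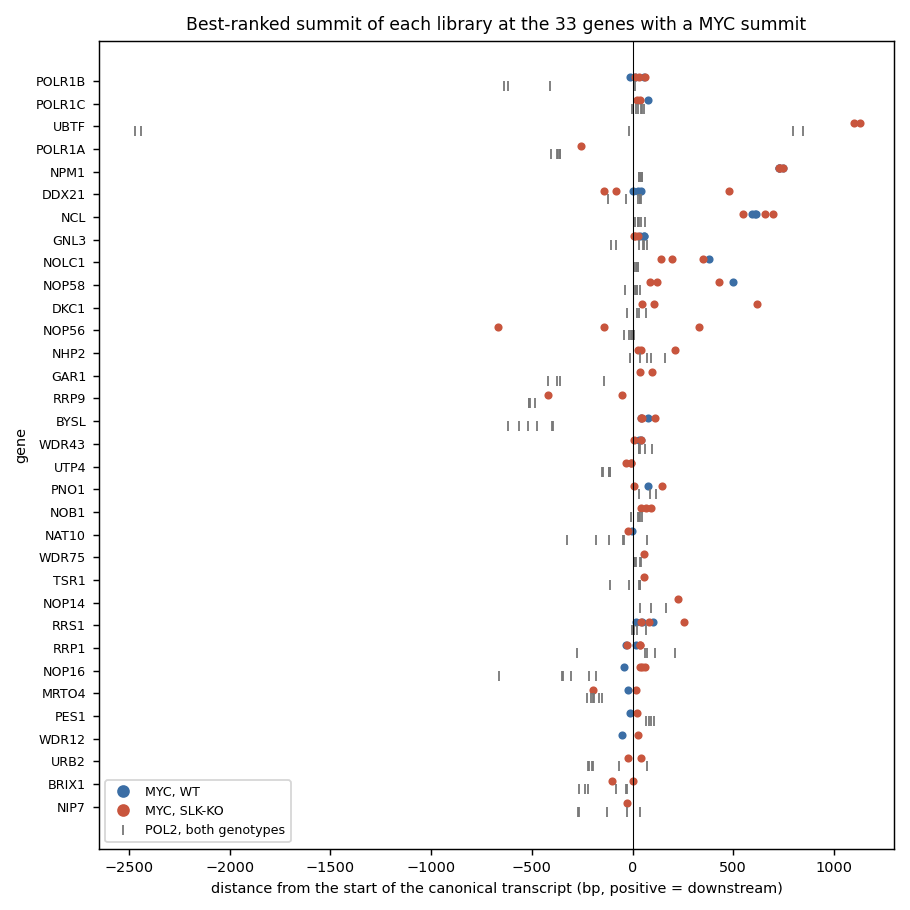
Distance in bp of the best-ranked MYC (circles) and POL2 (ticks) summit of each library from the start of the canonical transcript, for the 33 genes with a MYC summit. The 5 best-ranked POL2 summits of WDR12 and 1 of NOP14 lie outside the axis and are not drawn. MYC circles of NPM1 and NCL sit 725 to 748 bp and 546 to 695 bp downstream, apart from their POL2 ticks.

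Most MYC summits at the members sat close to the main start, those of NPM1, NCL and UBTF being among the exceptions. Counting only summits for which the member's canonical start was the nearest, the median absolute distance per library was 35.5 to 87.5 bp at members and 177 to 204 bp at POL2-bound genes. Within 100 bp of the start were 58.3% to 78.6% of the members counted and 30.2% to 34.2% of POL2-bound genes. POL2 summits gave 32.0 to 46.5 bp and 73.0 to 78.0 bp. Of the 107 best-ranked MYC summits of members over 6 libraries, 38 lay in a 5′ UTR, 21 in coding sequence, 25 in an intron and 23 upstream of the start. Of the 206 POL2 summits, 5 lay in an intron and 93 upstream. A POL2 summit of the same-numbered library lay within 250 bp of the MYC summit at 42.9% to 68.2% of members per library, and at 40.3% to 60.0% of POL2-bound genes. Positions of the best-ranked summits repeated between libraries, with a median spread of 79 bp over the 28 members found by MYC in 2 or more libraries, 100 bp or less at 16 of them and over 300 bp at 5.

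An E-box lay within 100 bp of a MYC summit more often at the members than at POL2-bound genes. Counting a gene by any of its MYC summits, 19 of 33 members (57.6%) had CACGTG wholly within 100 bp, compared with 618 of 1904 POL2-bound genes (32.5%). Only 5 of the 33 but 907 of the 1904 had MYC in a single library, so members had more summits to be counted by. The shares by library given below do not pool libraries. At positions 2 kb from the summits the counts were 0 of 33 and 2.57%. The best-ranked summits alone also gave 19 members, at 13 of which the nearest E-box was 25 bp or less from a summit. At 10 of the 19, among them NPM1, NCL, GNL3, BYSL, WDR43 and UTP4, the E-box was within 100 bp in every library with a summit. DDX21 and POLR1B, found in all 6 libraries, had it in only 1 and 2. The variant CACGCG, searched on both strands as CACGCG or CGCGTG, was near the summits of 45.5% of members and 36.5% of POL2-bound genes. At positions 2 kb away these shares were 0.0% and 2.21%. For CACGAG (or CTCGTG) they were 21.2% and 18.3% at the summits and 6.06% and 5.46% at 2 kb. For CATGTG (or CACATG) they were 9.09% and 13.9% at the summits and 24.2% and 13.3% at 2 kb. The drop 2 kb away was therefore not particular to CACGTG.

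By library, 8 of 13, 4 of 6 and 9 of 14 members with a MYC summit had an E-box in WT, and 14 of 26, 10 of 26 and 11 of 22 in SLK-KO. The means were 64.2% ± 2.57 and 47.4% ± 8.01 (SD, n = 3 each), a difference of -16.7 points without overlap of the ranges. POL2-bound genes went from 43.1% ± 2.86 to 30.8% ± 0.569, a difference of -12.3 points. At equal length the members' means were 67.0% ± 5.60 and 58.1% ± 1.65 (SD, n = 3 each), a difference of -8.88 points, and those of POL2-bound genes 46.4% and 44.9%, a difference of -1.49 points.

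**Figure D5:**
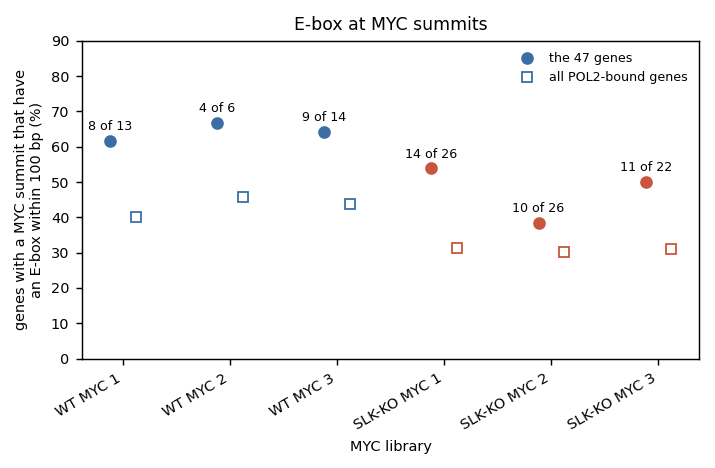
Percent of genes with a MYC summit that have CACGTG within 100 bp of it, per MYC library, for the 47 genes (filled circles, with counts) and all POL2-bound genes (open squares). WT libraries are blue and SLK-KO libraries red. The 47 genes gave 64.2% on average in WT and 47.4% in SLK-KO, above the POL2-bound genes of the same library in all 6.

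The promoter sequence alone did not separate members with and without MYC. In the 250 bases before and 50 after the canonical start, CACGTG was present at 20 of 47 members (42.6%), compared with 8.76% of all protein-coding genes with such a window and 9.94% of POL2-bound genes. It was present at 13 of the 33 members with a MYC summit (39.4%) and at 7 of the 14 without (50.0%). Those 7 were DDX18, EBNA1BP2, FBL, NOP2, NOP10, RRP12 and UTP20. Among POL2-bound genes the order was the other way, 16.4% with a MYC summit and 8.55% without. The E-boxes printed above for NPM1, NCL, DDX21 and POLR1B are outside this window.

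With whole lists, host genes of small nucleolar RNAs, which carry these guide RNAs inside the gene, were all among the members with a MYC summit. The annotation places such an RNA in 8 members (DKC1, GNL3, NCL, NOP56, NOP58, POLR1C, TSR1 and WDR43), and 8 of 8 had a MYC summit in at least 1 library, compared with 25 of the 39 other members. At equal length 20 of the 47 members had a MYC summit. The hosts NOP56, NOP58 and TSR1 were not among these, their best ranks being 207, 218 and 805. Host genes among all POL2-bound genes were not counted. At the host genes the median over genes of the median POL2 rank was 1720, and at the other members with POL2 it was 5787, where a smaller rank is a better score. Start sites of other coding genes lay within 1 kb of 19 of the 47 members, of which 14 had a MYC summit, compared with 19 of the 28 without such a neighbour.

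The other genes of the pathway, a list of 120 further ribosome biogenesis factors, had MYC shares between those of the 47 members and of POL2-bound genes. A MYC summit was present in at least 1 library at 44 of 120 (36.7%), in all 6 at 3 (2.50%), and at 5 (4.17%) in all SLK-KO but in no WT library. Per library their share was 4.44% ± 1.27 for WT and 22.2% ± 3.37 for SLK-KO (SD over 3 libraries each), and 4.17% and 3.89% at equal length. With whole lists this share over that of POL2-bound genes ranged from 1.31 (WT replicate 3) to 2.41 (SLK-KO replicate 1). The MYC excess of the 47 genes was thus much smaller in these other genes of the pathway. Their POL2 shares, 56.7% ± 24.0 and 78.0% ± 2.93 (SD over 3 libraries each), had lower means than those of both. The 3 in all 6 libraries were PPAN, DDX54 and RRP1B. PPAN, a large subunit assembly factor, had ranks of 66, 24 and 11 in WT and 16, 9 and 13 in SLK-KO, with no E-box within 100 bp in any library. RRP1B, a paralog of RRP1, had an E-box within 100 bp in 6 of 6 libraries and DDX54, a nucleolar helicase, in 5 of 6.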

How the data were processed

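The data were 12 lists of ChIP-seq peak summits, 1 per library (3 each for WT and SLK-KO with MYC and with POL2). The IgG and Input samples were not used here. Per the submitters' processing notes, reads were aligned with BWA 0.7.18-r1243 to GRCh38.p14 and MACS3 3.0.1 was among the tools. The caller's options and control are not given in the sources used here. The deposited score of each summit is the authors' −log10 q-value, as judged from its lowest value, and served here to order or filter the summits of 1 library. The lists hold no read counts, so depth is unknown.

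A gene had a summit when one lay within 1 kb of any GENCODE release 44 TSS of it, and the best-scored was its best summit. Lists were also taken at equal length (201 or 5047 summits). Of 82 sequence names in the lists, 24 matched the reference, which include all main chromosomes with summits. Promoter and E-box sequences came from the GRCh38 reference, with canonical transcripts as annotated. Shares are mean ± SD over libraries. Single genes were tested by exact two-sided permutation of genotype over libraries (20 relabellings, smallest p 0.1) with Benjamini-Hochberg adjustment over 10778 POL2-bound genes. No gene passed 0.05 for MYC or POL2, adjusted or not.

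Members and lists were chosen with earlier results of these data known. Values by library are given for members with MYC in all 6 libraries, in the 3 libraries of SLK-KO but 0 of WT, or in WT alone, and for the 2 members per role group with the best median MYC rank. Members with POL2 in 3 libraries of 1 genotype and 0 of the other were also to be named, as were those with no POL2 summit. Of the 120 other genes, those with MYC in all 6 libraries are named. Other genes were named after their values were seen. Some marker genes are not reported here. Alternatives covered the window, score minimum, list length, start sites, E-box distance, background, the omission of each library and a replicate block. Python 3.11.15, numpy 2.4.6, pandas 2.3.3, pysam 0.24.0 and matplotlib 3.10.9 were used.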

Additional observations from a re-analysis of the deposited data

How the results depend on the processing

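Of 97 alternative values, 83 kept their direction and lay within 1 SD between libraries of the value reported (for counts, within 1.5 times), 13 moved further and 1 reversed. With lists of equal length, the MYC share difference at members reversed to -4.26 points, members with MYC in all 6 libraries fell from 6 to 2, those in 3 SLK-KO and 0 WT from 5 to 0, and members minus POL2-bound genes from 31.6 to 16.4 points. The POL2 share difference went from 21.3 to 4.97 points and the E-box difference from -16.7 to -8.88 points, both within that spread. The POL2 count in 3 SLK-KO and 0 WT libraries was then 1 instead of 0, as it was with scores of at least 5, gene 5′ ends only or the nearest coding TSS only, and it was 2 with canonical TSSs only, chosen after seeing the data. A window of 500 bp gave 3 members with MYC in 3 SLK-KO and 0 WT libraries. Gene 5′ ends only gave 3 members with MYC in all 6 libraries and an E-box difference of -8.61 points. Leaving out 1 library gave 5 to 8 members with MYC in the SLK-KO libraries alone (8 without SLK-KO replicate 3) and 0 to 7 for POL2 (7 without WT replicate 1). It also gave share differences of 23.8 to 32.3 points for MYC and 6.03 to 34.8 points for POL2. Counts under these omissions are given without the share of POL2-bound genes.

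Deviations from the genotype mean were hardly correlated between libraries of the same number (-0.0203 to 0.0188 for MYC and -0.0157 to 0.0529 for POL2). Libraries of different numbers gave -0.0562 to 0.0398 for MYC and -0.0772 to 0.0884 for POL2. With 3 libraries per group these values cannot show whether same-numbered libraries were prepared together. With a replicate block the mean paired difference was 29.1 points for MYC and 21.3 for POL2, the count of MYC in 3 SLK-KO and 0 WT libraries stayed at 5, and the smallest exact sign-flip p was 0.25. The lists give called peaks, not depth, and limit every statement on a missing summit.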
